A study of Danio rerio with 6 samples.

Results

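The genes described here encode the class I phosphoinositide 3-kinases (PI3K) and a membrane inhibitor of them, in endocardial cells of the regenerating zebrafish heart. They were chosen by symbol: the catalytic subunit genes pik3ca, pik3cb, pik3cd and pik3cg, the regulatory subunit genes pik3r1, pik3r2, pik3r3a, pik3r3b and pik3r5, and pik3ip1. Of these 10 genes, 9 were among the 17835 genes in the table, and the 1 symbol without a row was pik3cd. Rows were taken by symbol alone, but the list of symbols was made with earlier results of these data on pik3r1 and pik3ip1 known. The study itself had listed pik3r1, pik3r3a, pip4k2aa and pip5k1bb among PI3K pathway genes lower in the myd88-/- (mutant) endocardium.

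RNA was sequenced from EGFP+ endocardial cells, the cells lining the heart chambers, that were sorted from cryoinjured ventricles 96 hours post cryoinjury (hpci). All fish were adults of the AB strain, 3 to 12 months old per the study's methods, and carried the ET(krt4:EGFP)sqet33-1A enhancer trap, the source of the EGFP used for sorting. The myd88+/+ group had 3 libraries, as did the group of their myd88-/- siblings, which carry the loss-of-function allele hu3568, and each library was made from a pool of 4 ventricles. The mutation was present in every tissue of the fish and not in the endocardium alone, and there was no uninjured group.

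Class I PI3K phosphorylate a membrane lipid, PIP2, to PIP3, and PIP3 recruits the kinase AKT and other proteins to the membrane, which promotes growth, survival and migration. A class IA enzyme is a pair of 1 catalytic subunit (alpha, beta or delta) and 1 regulatory subunit, which stabilizes its partner, holds it inactive and brings it to phosphorylated receptors and their adaptors. The class IB catalytic subunit gamma instead pairs with the pik3r5 or pik3r6 product and responds to G protein-coupled receptors. In mammals Pik3ip1 is a transmembrane protein that binds the catalytic subunit and lowers its activity. In endothelial cells of mammals the alpha subunit carries signals from VEGF receptors and TIE2, while the delta and gamma subunits are best known from leukocytes.

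Below, wild-type pools are the myd88+/+ and mutant pools the myd88-/- libraries, and the replicates of each are given in their order from 1 to 3. Normalized read counts summed to between 11136966 and 11847536 per library. The wild-type pools held 1305, 1149 and 1070 normalized counts of myd88 itself and the mutant pools 817, 575 and 849, so that every mutant pool was lower (limma adjusted p of 0.150). myd88-/- replicate 3 stood apart: its mean Spearman correlation was 0.969 with its own genotype and 0.971 with the myd88+/+ libraries. On the first principal component of the log2 values, the main axis of variation between libraries, this pool scored -24.95. The wild-type pools scored from -38.39 to -5.347, and the other mutant pools 47.54 and 38.22. The summed normalized counts of the 20 endocardial and endothelial markers ranged from 164721 to 193468 in wild-type and from 126000 to 162193 in mutant pools, with 13 of 20 lower. Markers with many counts weigh most in such a sum, so it does not describe the 20 markers alike. Leukocyte markers summed to 3239 to 6318 and 2775 to 4669, with 13 of 18 tested lower, 4 higher and 1 equal, and the neutrophil markers mpx and lyz had no row in the table. Of the remaining marker lists, 9 of 12 cardiomyocyte, 11 of 16 epicardial, fibroblast and mural, and 1 of 9 blood and thrombocyte genes tested were lower, and 0 genes of the 5 lists passed the criteria given next (limma). In these lists an unadjusted p under 0.05 was reached by 9 endothelial markers (4 lower, 5 higher), 4 leukocyte markers and 1 epicardial or mural marker, all 5 of them lower, and by 0 of the others, against 13.2% of all genes tested. The part of these cell types in the results was not tested. In such pools, fewer cells of a type and less RNA per cell cannot be told apart.

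To ask which class I PI3K genes differed between the genotypes, a limma model on log2(value + 1) was fitted to 16383 genes with a mean value above 5, which included all 9 listed members. A gene passed the criteria when its Benjamini-Hochberg adjusted p over all genes tested was under 0.05 and its change exceeded 1.5-fold. The regulatory subunit gene pik3r1 and the inhibitor gene pik3ip1 fell in myd88-/- endocardial cells, to 59.3% and 54.2% of the myd88+/+ mean. These 2 of 9 members passed the criteria, and both were lower. Over all genes tested, 0.702% passed, 0.562% toward lower values. Earlier results on these 2 genes were known when the list was made, so these shares are a reference and not an independent comparison. The study's own list of lower genes held pik3r1 and pik3r3a, so the same holds for the counts without overlap that follow. The genotypes did not overlap in 4 of 9 members, 3 of them lower (pik3r1, pik3r3a and pik3ip1) and 1 higher (pik3cg). Of all genes tested 18.1% did not overlap, 8.98% lower and 9.09% higher. An unadjusted p under 0.05 was reached by these same 4 members and by 13.2% of all genes. In 6 of 9 members the log2 fold change was below 0, as in 48.9% of all genes, and the median was -0.10, against 0.01 over all genes. That median was that of pik3r5, the member with the fewest reads, and moved to -0.52 if myd88+/+ replicate 3 was left out, or to -0.32 if myd88-/- replicate 3 was. None of the 9 members lies on chromosome 24, which carries myd88.

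**Figure D1:**
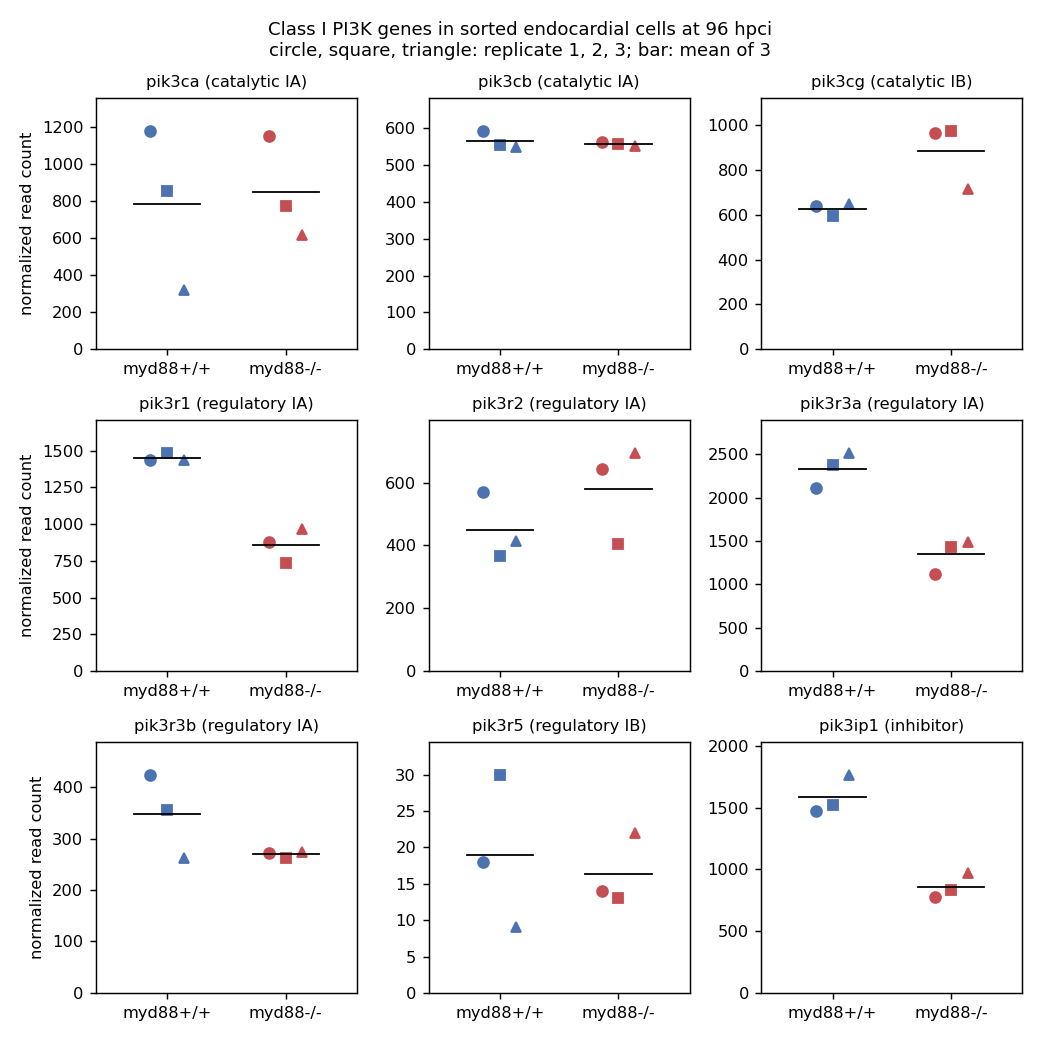
Normalized read counts of the 9 listed genes in each library, 1 panel per gene with its own linear axis from 0. Marks are single libraries and bars are means of 3; the genotypes are fully apart for pik3r1, pik3r3a, pik3ip1 and pik3cg, and overlap in the other 5 panels.

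Among the regulatory subunits, pik3r1 encodes the alpha subunit, in mammals the one most widely used by class IA enzymes. Its locus is chromosome 5, 54765702 to 54792239, minus strand (danRer11). The wild-type pools had 1434, 1485 and 1433 normalized counts, and the mutant pools had 880, 732 and 968. The 3 wild-type pools were almost equal, and the highest mutant pool, replicate 3, was far below the lowest of them. The means were 1451 ± 29.7 and 860.0 ± 119 (SD, n = 3) and differed by -0.76 ± 0.13 on the log2 scale (SE; limma adjusted p of 0.0448). The adjusted p depended on single libraries. It was 0.155, 0.239 and 0.126 without myd88+/+ replicate 1, 2 or 3, and 0.164, 0.111 and 0.0169 without myd88-/- replicate 1, 2 or 3. It was 0.0603 with libraries scaled to equal totals, while the log2 fold change stayed between -0.85 and -0.65 over all 12 alternatives.

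pik3r3a was the other regulatory gene that was lower in every mutant pool. It is 1 of the pair of zebrafish genes for the gamma regulatory subunit, a shorter protein that lacks the amino-terminal SH3 domain of the alpha subunit in mammals. Its locus is chromosome 2, 2957515 to 2988713, plus strand. Its start overlaps si:ch1073-82l19.1 on the other strand, which had at most 11 counts in any library, and reads on both genes were not counted. Normalized counts of pik3r3a reached 2108, 2378 and 2518 in the wild-type pools but 1122, 1435 and 1491 in the mutant pools. The genotypes were thus separated by a wide gap. The means were 2335 ± 208 and 1349 ± 199 (SD, n = 3), or 57.8% of the myd88+/+ mean. The log2 fold change of -0.80 ± 0.14 (SE) was of about the size of that of pik3r1, but the limma adjusted p of 0.0509 missed the threshold. It was 0.0276 without myd88-/- replicate 3 and 0.106 to 0.260 when any 1 of the other 5 libraries was left out. It was 0.0489 with a pseudocount of 8, 0.0485 with no filter on low values and 0.0485 with only genes of a mean above 50, so the side of the threshold on which it fell was set by such choices.

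The duplicate of this gene, pik3r3b (chromosome 6, 33537267 to 33558977, plus strand), did not separate the genotypes. It had 424, 355 and 262 normalized counts in the wild-type pools, against 272, 263 and 273 in the mutant ones. The mutant pools were nearly identical, and the lowest wild-type pool, replicate 3, was just below all of them. The difference of -0.34 ± 0.18 (SE, log2) came with a 95% interval of -0.76 to 0.08 and a limma adjusted p of 0.478. Whether the copies differed in their response to genotype was not tested. Reads that fit more than 1 place had been removed, which lowers the counts of near-identical copies.

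pik3r2 encodes the beta regulatory subunit and lies on chromosome 2 from 24700922 to 24755347, on the plus strand. In the wild-type pools 569, 366 and 415 normalized counts were found, in the mutant pools 643, 403 and 695. Replicate 2 was the lowest pool of both genotypes, and the groups overlapped. The log2 fold change of 0.35 ± 0.24 (SE) had a 95% interval of -0.18 to 0.89 and a limma adjusted p of 0.573, so it did not exceed the spread between pools.

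Because class IA regulatory subunits compete for the same catalytic partners, their normalized counts were also summed in each library. This sum is not corrected for transcript length and carries no test, since it is built from the members themselves. The wild-type sums were 4535, 4584 and 4628, the mutant sums 2917, 2833 and 3427. The wild-type pools agreed closely, and every mutant pool was lower, with a mean of 66.8% of the myd88+/+ mean. pik3r1 and pik3r3a together made most of the sum in every library. The share of pik3r1 was 31.0% to 32.4% of the sum in wild-type and 25.8% to 30.2% in mutant pools, and that of pik3r3a was 46.5% to 54.4% and 38.5% to 50.7%. The share of pik3r2, the 1 regulatory gene of class IA with a higher mutant mean, was 7.98% to 12.5% in wild-type and 14.2% to 22.0% in mutant pools. The shares of pik3r1 (by a narrow margin) and of pik3r2 did not overlap between the genotypes, whereas those of pik3r3a and pik3r3b did. Shares of the same sum depend on each other, so that of pik3r2 rises when the other genes fall. The normalized counts of pik3r2 themselves overlapped between the genotypes.

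**Figure D2:**
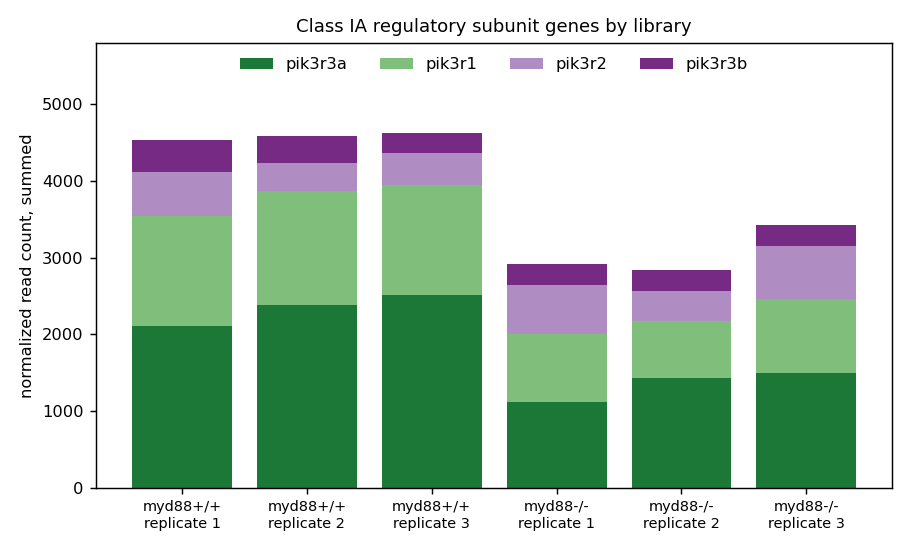
Summed normalized read counts of the 4 class IA regulatory subunit genes in each library, as stacked bars from 0. The myd88+/+ bars reach 4535 to 4628 and the myd88-/- bars 2833 to 3427, and most of the loss lies in the pik3r3a and pik3r1 segments. The pik3r3b segment is also smaller on average, and the pik3r2 segment is not.

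pik3r5 encodes the regulatory subunit that ties the gamma enzyme to G protein signals. It lies on chromosome 6 (19933763 to 19979961, plus strand) and had few reads, 18, 30 and 9 in the wild-type and 14, 13 and 22 in the mutant pools. At such values counting error alone is about 23.8%, and the groups overlapped. Its difference was -0.10 ± 0.47 (SE, log2), with a 95% interval of -1.17 to 0.98, and its direction changed with single libraries (-0.52 when myd88+/+ replicate 3 was left out, 0.29 for myd88+/+ replicate 2 and 0.041 for myd88-/- replicate 2). The alternative partners of the gamma subunit, pik3r6a and pik3r6b, had similarly few reads, with 45, 47 and 27 against 22, 32 and 55 for pik3r6a and 17, 17 and 12 against 14, 26 and 13 for pik3r6b.

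Among the catalytic subunits the picture was different, as none of the 3 listed genes passed the criteria or was lower in every mutant pool. pik3ca encodes the alpha subunit, which is required for vessel development in mice, and lies on chromosome 11 (34488869 to 34522249, minus strand). Wild-type pools had 1179, 852 and 320 normalized counts of it, mutant pools 1152, 773 and 618. The pools of 1 genotype differed more than the genotypes did, and myd88+/+ replicate 3 was the lowest of all. The within-genotype SD of pik3ca on the log2 scale was 0.76, and only 2.90% of the 11577 genes with a mean of at least 50 had a larger one. The log2 fold change of 0.26 ± 0.43 (SE) therefore had a wide 95% interval, from -0.71 to 1.23, with a limma adjusted p of 0.842, and became -0.29 without myd88+/+ replicate 3.

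pik3cb, the beta subunit gene (chromosome 15, 7064819 to 7161877, plus strand), was the most even of the members. The values were 593, 555 and 549 normalized counts for wild-type and 562, 558 and 553 for mutant pools. All 6 pools lay within a narrow band, and 99.6% of the 11577 genes had a larger within-genotype SD. The SDs of 23.9 and 4.51 (n = 3) were about as large as, or smaller than, the counting error of 23.7 at its mean. The difference was -0.02 ± 0.12 (SE, log2), with a 95% interval of -0.28 to 0.24, so a change of 1.5-fold in either direction lay outside the interval. Scaling libraries to equal totals gave 0.040 and leaving out myd88+/+ replicate 1 gave 0.015, so no direction can be given.

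pik3cg, the class IB gamma subunit gene on the minus strand of chromosome 4 (3343171 to 3353595), was the member with the largest positive change. There were 637, 594 and 649 normalized counts in the wild-type pools but 965, 974 and 714 in the mutant pools. Each mutant pool was above each wild-type pool, with replicate 3 closest to them. The means were 627 ± 28.9 and 884 ± 148 (SD, n = 3), and the log2 fold change was 0.48 ± 0.15 (SE), with a 95% interval of 0.14 to 0.82. The limma adjusted p was 0.217 (unadjusted 0.0104), and it was 0.0519 without myd88-/- replicate 3. Beside this, 13 of the 18 leukocyte markers tested were lower in mutants, 4 of them with an unadjusted limma p under 0.05. The leukocyte marker ptprc was 1 of the 4 that were higher, and its genotypes overlapped. It had 56, 68 and 29 against 33, 61 and 76 normalized counts. The part of leukocytes in the pik3cg values was not tested.

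Within each library, the ratio of summed class IA regulatory to summed catalytic counts (pik3ca, pik3cb and pik3cg) does not depend on how libraries were scaled. The ratio was 1.88, 2.29 and 3.05 for the wild-type and 1.09, 1.23 and 1.82 for the mutant pools. The highest mutant pool, replicate 3, was just below the lowest wild-type pool, replicate 1. This gap rested on pik3cg, whose product pairs with other regulatory subunits and whose counts were higher in every mutant pool. With pik3ca and pik3cb alone in the denominator, mutant replicate 3 lay above wild-type replicate 1, and the genotypes overlapped. The catalytic sum overlapped between genotypes, at 2409, 2001 and 1518 against 2679, 2305 and 1885, and much of its spread came from pik3ca. These ratios describe RNA and are not a measure of protein or of enzyme activity.

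The inhibitor gene pik3ip1 is at chromosome 5, 20866572 to 20879527 (minus strand), and overlaps no other gene of the table. The wild-type pools contained 1472, 1517 and 1766 normalized counts of it, the mutant pools 774, 835 and 967. The highest mutant pool was thus well below the lowest wild-type pool. The means were 1585 ± 158 and 859 ± 98.7 (SD, n = 3), a 1.85-fold lower level on the log2(value + 1) scale. The log2 fold change of -0.89 ± 0.14 (SE) was the largest fall among the members, with a limma adjusted p of 0.0232. It was 0.0710, 0.133 and 0.0933 without myd88+/+ replicate 1, 2 or 3, and 0.118, 0.0904 and 0.0102 without myd88-/- replicate 1, 2 or 3. The log2 fold change itself stayed between -0.97 and -0.80 over all 12 alternatives.

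Since pik3r1 and pik3ip1 were lower together, their ratio was taken in each library. It was 0.974, 0.979 and 0.811 for wild-type and 1.14, 0.877 and 1.00 for mutant pools, and these values overlapped. The ratio of pik3ip1 to the catalytic sum was 0.611, 0.758 and 1.16 for wild-type and 0.289, 0.362 and 0.513 for mutant pools, and every mutant pool was lower. RNA of the inhibitor was thus lower relative to the summed RNA of pik3ca, pik3cb and pik3cg, as was the sum of the class IA regulatory subunits. Both ratios rest in part on pik3cg, which was higher in every mutant pool but did not pass the criteria. Without pik3cg in the sum, the regulatory ratio overlapped between the genotypes. The pik3ip1 ratio of myd88-/- replicate 3 then lay only just below that of myd88+/+ replicate 1.

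**Figure D3:**
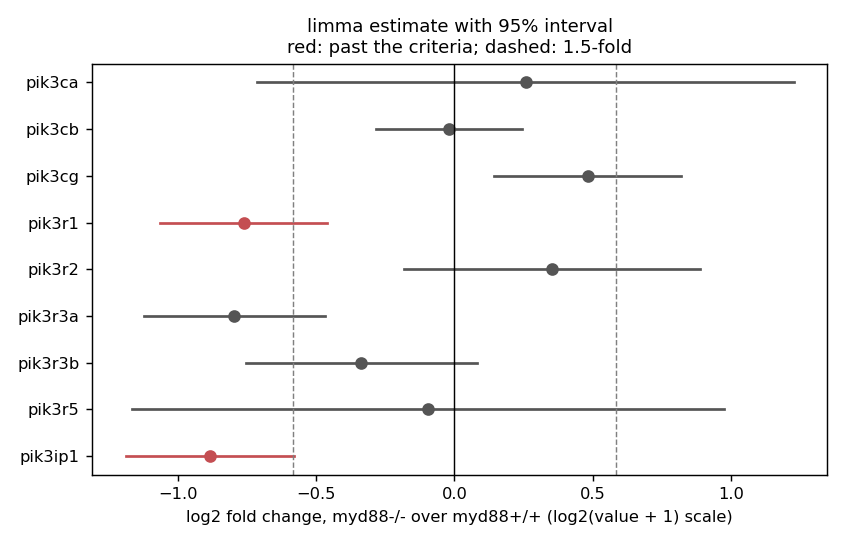
Log2 fold changes of the 9 members (myd88-/- over myd88+/+, log2(value + 1) scale) as points with limma 95% intervals, and dashed lines at 1.5-fold. Only pik3r1 and pik3ip1 are past the criteria; the interval of pik3r3a is of similar size and place, and those of pik3ca and pik3r5 span both dashed lines.

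The threshold fell among these 3 lower members, and their calls were compared across settings. No setting turned the direction of any of them. With eBayes without an intensity trend, 0 of the 3 passed, and the limma adjusted p was 0.144 for pik3ip1, 0.184 for pik3r1 and 0.201 for pik3r3a. With libraries scaled to equal totals only pik3ip1 passed, at 0.0407. All 3 passed without myd88-/- replicate 3, and 0 passed when any 1 of the other 5 libraries was left out. Leaving out a library left 5 libraries for the fit, and 28 to 247 of all genes tested then passed, against 115 with all 6.

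**Figure D4:**
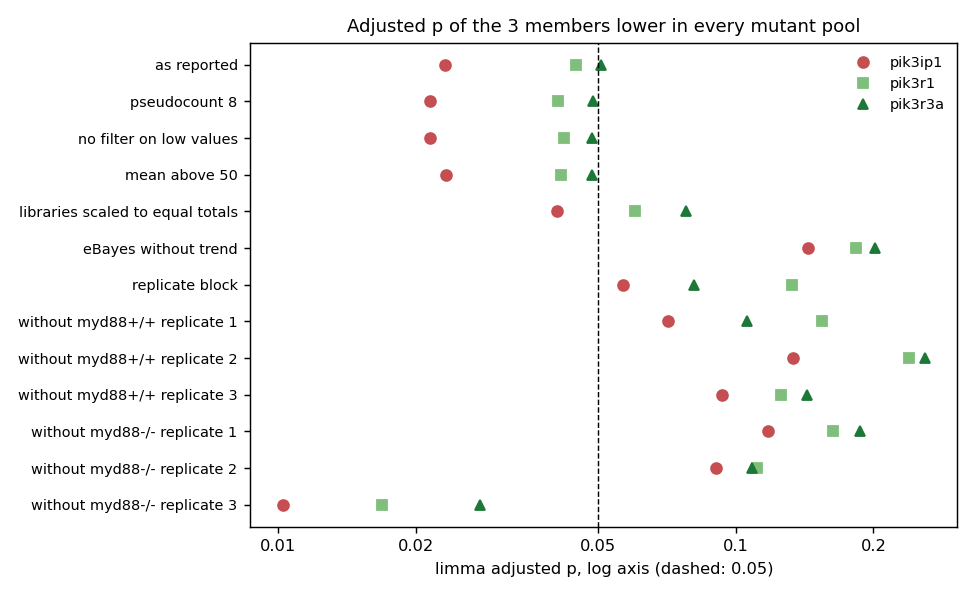
Limma adjusted p (log axis) of pik3ip1, pik3r1 and pik3r3a under the reported fit and the 12 alternatives, with a dashed line at 0.05. pik3ip1 and pik3r1 lie below 0.05 in the reported fit, where pik3r3a is at 0.0509; all 3 lie below it without myd88-/- replicate 3, and none with eBayes without trend or a replicate block.

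The genes with profiles most like those of pik3r1 and pik3ip1 were then looked up among 10624 other genes with a mean of at least 50, by the root mean square distance of log2 values centred on each gene's mean over the 6 libraries. Closest to pik3r1 were cry3b, a cryptochrome gene, at a distance of 0.0587, the glutamine synthetase gene glulb at 0.0605, and myclb, a MYC family gene, at 0.0732. Closest to pik3ip1 were insig1, which restrains sterol synthesis in mammals, at 0.0314, myclb at 0.0916, and ankhb at 0.0930. insig1 followed pik3ip1 pool by pool, with 1293, 1360 and 1606 normalized counts in wild-type and 715, 774 and 849 in mutant pools, and overlaps si:dkey-151p11.2. ankhb overlaps otulinb. Of the other members, pik3r3a was the 4th nearest gene to pik3ip1, at 0.0951, and pik3r1 the 23rd, at 0.153. pik3ca was at rank 10426. With 6 libraries in 2 genotypes many genes lie close to any such profile, so these distances are a description only.

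Whether the rest of the PI3K machinery moved was examined with 6 lists of genes chosen by role, 107 genes tested in all, outside the class I members. Of these, 0 were past the criteria toward higher and 2, or 1 each in 2 lists, toward lower values. The share of all genes tested that passed was 0.702%, with 0.562% toward lower values. Of the 107 genes, 55 were above and 52 below 0, and their median was 0.02 on the log2 scale. An unadjusted p under 0.05 was reached by 19 of the 107, 12 lower and 7 higher, and by 13.2% of all genes tested. The lists thus showed no common direction as a whole, and the median over all genes was 0.01. Of all genes tested, 48.9% were below 0, which is the reference for the direction counts of the single lists.

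Among activators, gng2, a G protein gamma subunit gene, fell. Free beta-gamma dimers activate the gamma and beta enzymes. Against 5274, 5311 and 4880 normalized counts in the wild-type pools, the mutant pools had 2679, 2582 and 2992, with a wide gap. The difference was -0.91 ± 0.12 on the log2 scale (SE; limma adjusted p of 0.0120). The adjusted p was 0.0610 and 0.103 without myd88+/+ replicate 1 or 2, 0.0735 and 0.0550 without myd88-/- replicate 1 or 2, 0.0397 if myd88+/+ replicate 3 was left out and 0.00635 if myd88-/- replicate 3 was. It was 0.104 with eBayes without trend and 0.0717 with a replicate block. In its list of RAS and G protein subunit genes 14 of 19 were lower, with a median of -0.08. Of the 19, 5 had an unadjusted limma p under 0.05, all lower, against 13.2% of all genes tested. The highest value among genes with a mean of at least 50 was that of mras, a RAS family gene, at 0.10 ± 0.12 (SE).

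The kinases that make the PI3K substrate held the other gene past the criteria, pip4k2aa, which fell. Its product turns a minor phosphoinositide into PIP2. The wild-type pools gave 356, 356 and 411 normalized counts, the mutant pools only 88, 71 and 57, a 5.21-fold lower level on the log2(value + 1) scale (limma adjusted p of 0.00133, and at most 0.0239 under the 12 alternatives). pip4k2aa lies on chromosome 24, 3.06 Mb from myd88, and an effect of the mutation on its expression cannot be told apart from that of alleles linked to the mutated locus. Of the 13 kinases tested 8 were lower, with a median of -0.09. An unadjusted limma p under 0.05 was found for 2 of them, pip4k2aa and pip5k1bb, both lower, against 13.2% of all genes tested. pip5k1bb had 646, 767 and 609 normalized counts in wild-type and 245, 323 and 433 in mutant pools. Its log2 fold change of -1.04 ± 0.21 (SE) did not pass the criteria (limma adjusted p of 0.0679). The largest rise, that of pi4k2a, was 0.09 ± 0.19 (SE) among genes with a mean of at least 50.

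In the phosphatases that remove PI3K products 9 of 11 were above 0. Their median was 0.31 on the log2 scale, and 0 passed the criteria (limma, 4 of 11 with an unadjusted p under 0.05, all higher, against 13.2% of all genes). The copies of the main PIP3 phosphatase, ptena and ptenb, did not separate the genotypes. ptena had 758, 689 and 607 against 731, 647 and 788 normalized counts, and ptenb 1604, 1584 and 1845 against 1651, 1766 and 1857. Their log2 fold changes were 0.08 ± 0.14 and 0.07 ± 0.12 (SE), with 95% intervals of -0.24 to 0.39 and -0.20 to 0.34. The highest gene with a mean of at least 50 was inpp4aa, which acts on a breakdown product of PIP3, at 0.50 ± 0.18 (SE, limma adjusted p of 0.303), and the lowest inpp5f at -0.33 ± 0.21.

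Upstream receptors and adaptors of class IA showed no shared direction, with 16 of 29 above and 13 below 0 and a median of 0.09. irs2b, which encodes an insulin receptor substrate that binds class IA regulatory subunits, had the lowest value. It had 1727, 1414 and 1466 normalized counts in wild-type and 559, 502 and 1147 in mutant pools, with replicate 3 well above the other mutant pools but still below every wild-type pool. The difference of -1.16 ± 0.28 (SE, log2) missed the threshold (limma adjusted p of 0.132), and the adjusted p was 0.00150 without myd88-/- replicate 3. erbb3a, a neuregulin receptor gene, had the highest value among genes with a mean of at least 50, at 0.56 ± 0.36, which rested on 106 counts in myd88-/- replicate 3 against 37 to 48 in the other libraries. None of the 29 passed the criteria. An unadjusted limma p under 0.05 was reached by 4 of the 29, all lower, against 13.2% of all genes tested.

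The PI3K of other classes act on different lipids, mostly in endosomes and autophagy. Their list also held partners of class I enzymes, pik3r6a, pik3r6b and pik3ap1. In this list 8 of 10 were above 0, with a median of 0.16 and 0 past the criteria (limma). An unadjusted limma p under 0.05 was reached by 1 gene of the 10, against 13.2% of all genes tested. That gene was pik3c3, the class III enzyme, with 330, 323 and 316 normalized counts in wild-type and 505, 462 and 427 in mutant pools. The genotypes did not overlap and differed by 0.52 ± 0.13 (SE, log2; limma adjusted p of 0.143). pik3c3 overlaps si:dkeyp-75h12.7 on the other strand. The class II gene pik3c2a, which overlaps ppp1r15b, had the lowest value among genes with a mean of at least 50, at -0.02 ± 0.14, and 0.038 after scaling libraries to equal totals.

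The list of genes for proteins that read PI3K products held AKT, its kinase and the TEC kinases. It also held regulators of AKT that are not such readers, phlpp1, phlpp2, rictora and rictorb. This mixed list was balanced, with 12 of 25 rows above and 13 below 0, a median of 0.00 and 0 past the criteria. An unadjusted limma p under 0.05 was reached by 3 rows, 1 lower and 2 higher, against 13.2% of all genes tested. The extremes among genes with a mean of at least 50 were tec at 0.44 ± 0.17 and akt3a at -0.50 ± 0.28 (SE). The symbol cyth1a has 2 rows in the table, and both were counted.

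**Figure D5:**
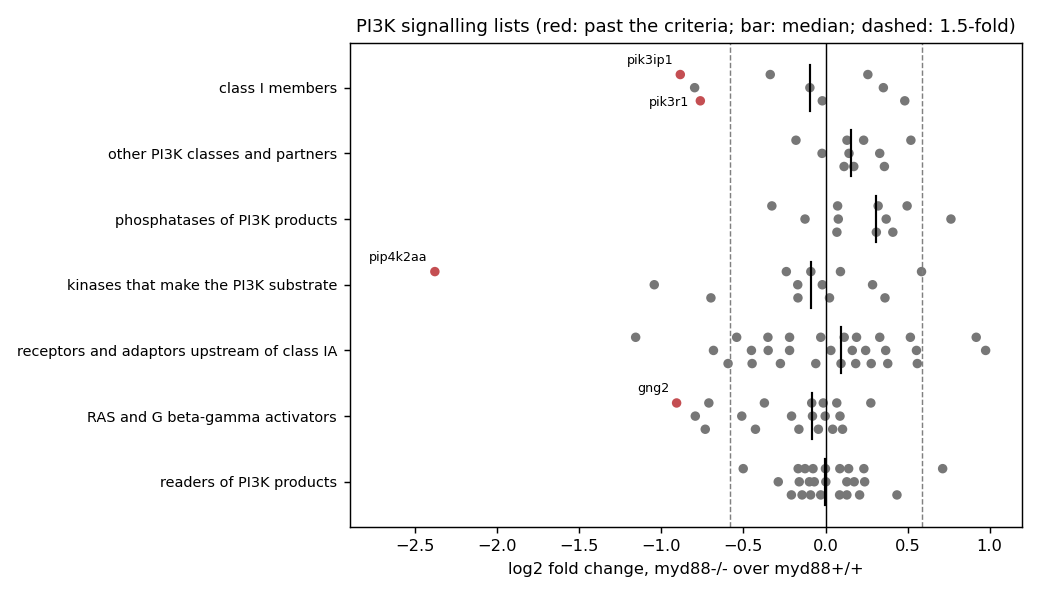
Log2 fold change (myd88-/- over myd88+/+) of every gene tested in the class I members and in the 6 lists, 1 point per gene, with the list median as a bar and dashed lines at 1.5-fold. The red points past the criteria are pik3ip1, pik3r1, pip4k2aa and gng2, all lower; the list medians lie between -0.10 and 0.31.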

How the data were processed

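Per the labels and the study's methods, the authors trimmed reads with Trimmomatic 0.39, aligned them with STAR 2.7.10a to danRer11, removed duplicate, multimapping, ribosomal and mitochondrial reads with Picard 3.0.0, and counted reads on exons with featureCounts 2.0.4, leaving out reads on several genes. Whether strand was used is not given in the sources used here. The deposited values are a score: counts that the authors normalized with DESeq2 1.36.0 and rounded. This was read from the values. No gene had a value of 20, 61 or 101 in myd88+/+ replicate 1, for example, as rounding after division by a factor gives. The design, written for either unit, therefore used limma 3.58.1 (R 4.3.3). Values were transformed as log2(value + 1), genotype alone was modelled, and variances were moderated by eBayes along a mean-variance trend. Such fold changes understate low genes. The 95% intervals are limma's. The fit was tested on simulated data. The total per library limits precision, and counting error is taken as the square root of a value.

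The members and lists were chosen with earlier results of these data known. Named genes were the members, myd88 and list genes past the criteria. In each list the highest and lowest gene with a mean of at least 50 were named. The 3 nearest profiles of pik3r1 and pik3ip1 were named too. After their values were seen, ptena, ptenb, ptprc, pip5k1bb, pik3ap1, pik3r6a, pik3r6b and the profiles nearest to pik3r3a and pik3ca were added. Of the 9 member identifiers, 9 were in a table of gene names, 8 with the same symbol. Libraries were no duplicates of each other: the mean squared difference over its counting variance was at least 65.05 per gene. Replicates were separate pools. Promoter motifs and levels per transcript length were not analysed here. Alternatives were other pseudocounts, filters, scaling and variance models, leaving out 1 library and a replicate block.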

Additional observations from a re-analysis of the deposited data

How the results depend on the processing

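No member past the criteria changed direction under the 12 alternatives, but the calls were fragile. The number of members past the criteria was 2 in the reported fit. It was 3 with a pseudocount of 8, with no filter on low values and with only genes of a mean above 50. It was 1 with libraries scaled to equal totals, 0 with eBayes without trend, and 0 to 3 when 1 library was left out. Genes past the criteria over all genes tested were 115, 25 without trend, and 28 to 247 with 1 library left out. Genes of the PI3K lists past the criteria were 2, 1 without trend, and 1 to 4 with 1 library left out. The members' median of -0.10 ran from -0.52 to -0.020 with 1 library left out.

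Log2 fold changes that were not called changed sign when 1 library was left out: pik3ca ran from -0.29 to 0.65, pik3cb from -0.041 to 0.015, pik3r5 from -0.52 to 0.29, pik3r6a from -0.52 to 0.12, pik3r6b from -0.16 to 0.32, pik3ap1 from -0.030 to 0.33, pik3c2a from -0.10 to 0.097, pi4k2a from -0.069 to 0.25, ptena from -0.0061 to 0.15, ptprc from -0.20 to 0.49 and top1l from -0.29 to 0.65. Scaling libraries to equal totals moved the median of all genes by 0.058, and gave 0.040 for pik3cb and 0.038 for pik3c2a. The cause of these sign changes was not tested. Fits with 1 library left out also had fewer libraries, which the scaled fit did not. With only genes of a mean above 50, pik3r5 was not tested. Counting error alone was 23.8% of the mean for pik3r5, against a CV of 55.5% among its wild-type pools.

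The replicate numbers of the labels gave no sign of pairing between the pools. The correlation of deviations from the group means was -0.12, 0.13 and -0.14 for equal numbers, and -0.18 to 0.25 over all combinations. Deviations from a mean of 3 pools constrain each other, so these values cannot exclude pairing. With a replicate block, 0 members, 45 of all genes and 1 list gene passed the criteria, and the adjusted p was 0.0567 for pik3ip1, 0.132 for pik3r1 and 0.0717 for gng2.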

Other observations

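The spread of pik3ca between pools of 1 genotype was followed to the genes with the most similar profile, a choice made after its values were seen. The nearest of 10624 genes was top1l, also on chromosome 11, with 1765, 1388 and 484 normalized counts in wild-type and 1406, 1389 and 1082 in mutant pools, at a root mean square distance of 0.184 on the log2 scale. The second was fah on chromosome 7, with 111, 79 and 41 against 132, 103 and 90. All 3 genes were lowest in myd88+/+ replicate 3, which for top1l and fah follows from their choice by likeness to pik3ca. By contrast pik3cb, the other class IA catalytic gene in the table, had 549 normalized counts in that pool and 555 to 593 in the other myd88+/+ pools, so the ratio of pik3cb to pik3ca was 0.503, 0.651 and 1.72 in wild-type and 0.488, 0.722 and 0.895 in mutant pools.

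For pik3r3a, also looked up after its values were seen, the nearest profiles were bcas3 at 0.0746, the lysyl oxidase gene loxl2a at 0.0803, and insig1 at 0.0903. insig1 was thus among the 3 nearest genes of both pik3ip1 and pik3r3a. loxl2a, which crosslinks collagen in other species, had 6125, 7141 and 6465 normalized counts in wild-type and 3126, 3888 and 4450 in mutant pools. The B cell adaptor gene pik3ap1, which couples receptors to class IA enzymes in leukocytes, had 157, 247 and 232 against 254, 270 and 188, with a log2 fold change of 0.17 ± 0.22 (SE).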
